A study of Caenorhabditis elegans with 2 samples.

Results

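The genes described here encode the RNA cores of 3 ribonucleoprotein machines of Caenorhabditis elegans: rpr-1 (RNase P RNA), mrpr-1 (RNase MRP RNA) and the signal recognition particle (SRP) RNA genes srpr-1.2, srpr-2.1 and srpr-2.2. They were taken by name from the WBcel235 annotation, and make up 5 of its 9426 nuclear non-coding genes other than piRNA genes. The list was drawn up with the signals at these genes already known, so their signals, ranks and summit positions are descriptions and carry no test. The embryos were of strain OP744, which carries the allele tm4063 of unc-119 and the transgene wgIs744, a copy of hlh-13 tagged with TY1, EGFP and 3xFLAG alongside unc-119(+). HLH-13 is a basic helix-loop-helix (bHLH) transcription factor. Chromatin from whole late embryos of mixed sex, aged 3.5 hours and synchronised by egg bleaching, was precipitated with an antibody against GFP in 2 biological replicates, the only group of the series, and no untagged strain was analysed here. Whole embryos pool all cell types, so the cells in which a region was recovered cannot be told apart.

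RNase P trims the 5' ends of precursor tRNAs, and RNase MRP, its close relative, cleaves precursor ribosomal RNA. The SRP binds signal peptides as they leave the ribosome and brings the ribosome to the endoplasmic reticulum, with the SRP RNA as its scaffold. In vertebrates these RNAs are made by RNA polymerase III, and which polymerase makes them here was not measured. In vertebrates the RNase P and MRP RNA genes are driven from upstream of the gene, by a proximal sequence element followed by a TATA box, whereas tRNA genes are driven by an A box and a B box inside the gene.

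The DNA in front of mrpr-1 is printed because it shares an 11-letter word with the DNA in front of rpr-1, followed by a TATA word, and these 2 genes had the highest signals. The stretch runs from 80 bp before the gene to base 30 of it (chrII:7200153-7200262, plus strand, WBcel235, read from the RefSeq copy of that assembly as are all sequences here), with the letters GTGTCNGCCGC and the overlapping TATA words TATATA and TATAAA in capitals.
mrpr-1: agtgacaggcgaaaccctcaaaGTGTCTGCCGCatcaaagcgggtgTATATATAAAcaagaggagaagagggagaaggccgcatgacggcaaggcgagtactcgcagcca

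GTGTCNGCCGC was the longest stretch shared by the 100 bp upstream of rpr-1 and mrpr-1 with 1 mismatch (N) and no gap, and it was looked for after those sequences had been seen. It began 58 bp before mrpr-1 and 56 bp before rpr-1. The first TATA word began 34 bp before mrpr-1 and 30 bp before rpr-1, which left 13 bp and 15 bp between the words. At mrpr-1 an overlapping TATATA began 32 bp before the gene, so the gap there depends on which TATATA is counted. The 3 SRP RNA members held neither GTGTCNGCCGC nor an exact TATAAA or TATATA within 100 bp upstream. TATA words with a mismatch were not searched, and the stretches of srpr-1.2 and srpr-2.2 printed below hold TATATT.

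The SRP RNA genes began at a common boundary. The last 40 bp before each annotated SRP RNA gene and its first 30 bases are printed on WBcel235, with GAAAAACC in capitals, the letters that 4 of the copies share right before the gene (srpr-2.2 chrIII:5031679-5031748, minus strand; srpr-1.2 chrIII:4369428-4369497, plus strand; srpr-2.1 chrIII:5211180-5211249, plus strand; srpr-1.1 chrIII:4379177-4379246, minus strand; srpr-3 chrV:9293603-9293672, minus strand). The genes srpr-1.1 and srpr-3 are not among the 5 and are shown as the remaining copies.
srpr-2.2: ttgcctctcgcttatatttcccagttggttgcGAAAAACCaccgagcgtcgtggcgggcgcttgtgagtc
srpr-1.2: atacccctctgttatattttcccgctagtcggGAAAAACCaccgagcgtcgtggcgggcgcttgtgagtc
srpr-2.1: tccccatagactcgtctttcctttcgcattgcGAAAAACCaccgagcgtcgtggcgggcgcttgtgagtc
srpr-1.1: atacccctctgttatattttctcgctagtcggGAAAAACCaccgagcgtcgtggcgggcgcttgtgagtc
srpr-3: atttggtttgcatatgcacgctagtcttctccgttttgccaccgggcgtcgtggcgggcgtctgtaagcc

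GAAAAACC began 8 bp before the first base of srpr-2.2, srpr-1.2, srpr-2.1 and srpr-1.1, and was missing before srpr-3. Within 20 bp upstream of a gene GAAAAACC was found at 12 of the 9426 non-coding genes (0.127%), among them the SRP RNA genes that defined it. The word was picked after these sequences had been seen, so its presence before those genes was given in advance. Over the whole 100 bp upstream, srpr-2.1 matched srpr-2.2 at 34 positions and srpr-1.2 at 31, and srpr-2.2 matched srpr-1.2 at 59. The pair srpr-1.2 and srpr-1.1 matched at 95 of 100 positions.

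Within the gene the SRP RNA members were near identical, which bears on every value given for them. The 3 members are each 299 bp long and align without gaps. They differ at 19 positions, in capitals here; the first is base 49 and the last base 298.
srpr-2.2: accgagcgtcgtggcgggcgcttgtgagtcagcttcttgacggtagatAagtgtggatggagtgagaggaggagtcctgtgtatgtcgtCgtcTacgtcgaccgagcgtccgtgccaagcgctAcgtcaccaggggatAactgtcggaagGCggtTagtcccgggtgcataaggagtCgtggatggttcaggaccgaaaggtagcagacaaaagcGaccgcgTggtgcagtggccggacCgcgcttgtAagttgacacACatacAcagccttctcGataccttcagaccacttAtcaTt
srpr-1.2: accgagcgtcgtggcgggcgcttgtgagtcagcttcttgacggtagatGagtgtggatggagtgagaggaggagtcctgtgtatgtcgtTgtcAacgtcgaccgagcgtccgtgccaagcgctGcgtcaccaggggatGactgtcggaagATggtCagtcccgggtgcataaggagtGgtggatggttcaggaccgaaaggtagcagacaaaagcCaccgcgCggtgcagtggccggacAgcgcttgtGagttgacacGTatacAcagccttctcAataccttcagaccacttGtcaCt
srpr-2.1: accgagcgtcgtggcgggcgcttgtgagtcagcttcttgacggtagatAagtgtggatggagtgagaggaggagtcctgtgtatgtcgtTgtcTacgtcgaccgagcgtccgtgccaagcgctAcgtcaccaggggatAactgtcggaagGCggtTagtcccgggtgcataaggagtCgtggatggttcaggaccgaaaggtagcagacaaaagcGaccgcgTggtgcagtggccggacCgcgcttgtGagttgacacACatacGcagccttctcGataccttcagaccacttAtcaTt

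The genes srpr-2.1 and srpr-2.2 were identical at 296 of 299 positions (99%), and srpr-1.2 matched its neighbour srpr-1.1 with 4 mismatches and 1 gap (98.3%). Between srpr-1.2 and the srpr-2 pair identity was 94.0 to 94.3%. The gene srpr-3 stood apart, with 81.7 to 82.5% identity to the other 4 copies. A sequence read from a shared stretch cannot be placed on 1 copy, and how such reads were treated was not stated. Of the 32-letter words in the gene, 29.9% occurred once in the genome at srpr-2.2, 25.4% at srpr-1.2, 28.4% at srpr-2.1 and 13.1% at srpr-1.1. At mrpr-1, rpr-1 and srpr-3 every such word was unique. Signals at srpr-2.2, srpr-1.2, srpr-2.1 and srpr-1.1 may therefore include reads from another copy or lack reads of their own, and this was not tested.

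Every member lay under a strong region. The authors deposited 30000 candidate regions for each replicate and 30000 for the pool of both, and kept 423 of the pooled regions (1.41%) as an optimal set. That set was chosen with the irreproducible discovery rate, a measure of how well ranks repeat between replicates. It held the same regions as the 423 pooled regions of highest signal. An optimal region here therefore equals a pooled rank of at most 423, and does not by itself show a high rank in each replicate. Each region has a summit and a signal value, the authors' own measure of enrichment over 1 control library, whose scale is not given. A region was assigned to a gene where its summit lay in the gene or within 100 bp. On that rule all 5 members had an optimal region. Of all non-coding genes other than piRNA genes 28.4% had a pooled region and 4.08% an optimal region, which is 14.4% of those with a pooled one. Since the genes were chosen from this very readout, nothing is read from the comparison.

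The RNase P and RNase MRP RNA genes had the highest signals of the 5. At mrpr-1 (II, 7200233 to 7200418, plus strand) the signal was 133 in replicate 1 and 125 in replicate 2, and 256 in the pooled list, where it ranked 32 of 30000. At rpr-1 (I, 13463955 to 13464207, plus strand) it was 135 in replicate 1 and 113 in replicate 2, and 253 in the pooled list, at rank 34. The mean over replicates was 129 ± 5.27 for mrpr-1 and 124 ± 15.2 for rpr-1 (SD, n = 2), so the genes did not differ beyond the spread between replicates. Both ranked 30 to 52 in each replicate alone. Relative to the median region of its list, the signal of mrpr-1 was 7.47-fold in the pool, 6.85-fold in replicate 1 and 6.12-fold in replicate 2.

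The SRP RNA genes followed at lower signal. The highest was srpr-2.2 (III, 5031410 to 5031708, minus strand), with 82.6 in replicate 1, 96.8 in replicate 2 and 185 in the pool, at rank 88. Next came srpr-1.2 (III, 4369468 to 4369766, plus strand), with 55.1 in replicate 1, 60.04 in replicate 2 and 117 in the pool, at rank 204. The values of each replicate at srpr-2.2 lay below those of rpr-1 and mrpr-1 and above those of srpr-1.2, an order that was not tested. By the deposited −log10 q in the pooled list, srpr-2.2, rpr-1 and mrpr-1 were tied at the maximum of 2.356.

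Among the 5 genes the replicates differed most at srpr-2.1 (III, 5211220 to 5211518, plus strand), with 65.8 in replicate 1 against 35.8 in replicate 2, and 97.2 in the pool, at rank 313. This gene ranked 176 in replicate 1 and 1568 in replicate 2, outside the 423 best regions of the second library. Its mean of 50.8 ± 21.2 (SD, n = 2) did not differ from the 57.6 ± 3.50 of srpr-1.2 beyond that spread. Ranked by the deposited −log10 q in place of the signal, srpr-2.1 was at 116 and srpr-1.2 at 443, the reverse order. The lowest signal in the optimal set was 85.3, so srpr-2.1 was the member nearest to that edge.

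The remaining SRP RNA copies fell outside the optimal set. At srpr-3 (V, 9293334 to 9293632, minus strand) the signal was 54.2 in replicate 1 and 23.1 in replicate 2. Its pooled signal of 75.6, at rank 599, was just under the edge of the optimal set. It ranked 280 in replicate 1 and 10368 in replicate 2, so its place rested on the first library. At srpr-1.1 (III, 4378909 to 4379206, minus strand) the signal was 17.9 in replicate 1 and 24.5 in replicate 2, close to the list medians of 19.4 and 20.5. A stronger pooled region lay beyond its 3' end, with the summit 132 bp past the gene and a signal of 57.0 at rank 2001. The genes srpr-1.2 and srpr-1.1, which share almost all of their sequence, had pooled signals of 117 and 36.2.

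**Figure D1:**
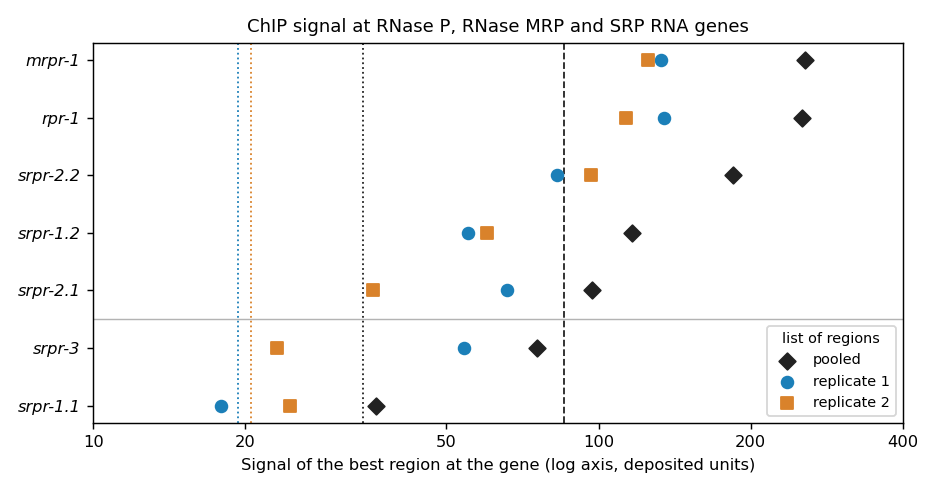
Signal of the best region at each gene (x axis, log scale, deposited units) in the pooled list (diamonds), replicate 1 (circles) and replicate 2 (squares), for the 5 genes above the grey line and the remaining SRP RNA genes below it. Dotted lines mark the median of each list in its colour, and the dashed line the lowest pooled signal of the optimal set, 85.3. All 5 genes have pooled diamonds right of the dashed line, and the squares of srpr-2.1 and srpr-3 lie far to the left of their circles.

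Pooled regions that were the best at a gene of the annotation's class ncRNA were listed by signal. Those that were also the best at a tRNA, snoRNA, snRNA or miRNA gene were left out. Among the remaining 1420 regions, mrpr-1 was at place 2 and rpr-1 at place 3. In that list srpr-2.2 was at place 7, srpr-1.2 at place 16 and srpr-2.1 at place 20, against place 51 for srpr-3 and place 779 for srpr-1.1. The genes sat in differing surroundings. The gene rpr-1 lay in an intron of ints-8, which encodes a subunit of the Integrator complex, on the opposite strand. Within ckb-2, a choline kinase gene, srpr-1.2 was intronic on the same strand, and srpr-2.2 was intronic in klp-6, a kinesin gene, on the opposite strand. The 5' end of srpr-2.2 also overlapped 39 bp of R144.16, an annotated ncRNA gene on the same strand, and F44A2.13 covered srpr-3 in full. Between genes lay mrpr-1, 667 bp from E04F6.6 and 130 bp before pcrg-1, and srpr-2.1, 2110 bp from syx-16, a syntaxin gene, and 262 bp from ZC155.4. The protein-coding genes E04F6.6, on the opposite strand, and pcrg-1, on the same strand, both start on the side of mrpr-1. The region at mrpr-1 therefore also lies upstream of them, and to which gene it belongs was not tested.

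Summits sat in different places in the RNase genes and the SRP RNA genes. At rpr-1 the summit lay 19 bp inside the gene, counted from the 5' end, in the pooled list and in both replicates. At mrpr-1 it lay 21 bp inside in the pooled list and in replicate 1, and 23 bp inside in replicate 2. The lists therefore placed these summits within 2 bp of each other. Of the 422 optimal regions with a region in both replicates, 38 had replicate summits at most 2 bp apart (9%), and the median distance was 23 bp.

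At the SRP RNA genes the summit lay deep in the gene and shifted between lists. At srpr-2.2 it was 123 bp inside in the pooled list, 203 bp in replicate 1 and 137 bp in replicate 2. A further region of replicate 1 had its summit 8 bp upstream of srpr-2.2, with a signal of 64.9 at rank 183. At srpr-1.2 the summit was 106 bp inside in the pooled list, 207 bp in replicate 1 and 156 bp in replicate 2. At srpr-2.1 it was 205 bp inside in the pooled list, 227 bp in replicate 1 and 194 bp in replicate 2. These ranges over the 3 lists were 33 to 101 bp, and the summits of the replicates alone lay 66 bp apart at srpr-2.2, 51 bp at srpr-1.2 and 33 bp at srpr-2.1. Such distances were common: 184 of the 422 optimal regions (43.6%) had replicate summits at least 30 bp apart. Within 50 bp of the pooled summit, 24.3% of 32-letter words were unique at srpr-2.2, 0% at srpr-1.2 and 11.4% at srpr-2.1. Over the optimal set 78 of 423 summits (18.4%) had fewer than 50% unique words around them. The part that repeated sequence plays in the place of these summits was not tested. At srpr-3, whose sequence is unique, the summit lay 114 bp inside in the pooled list, 60 bp in replicate 1 and 127 bp in replicate 2.

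**Figure D2:**
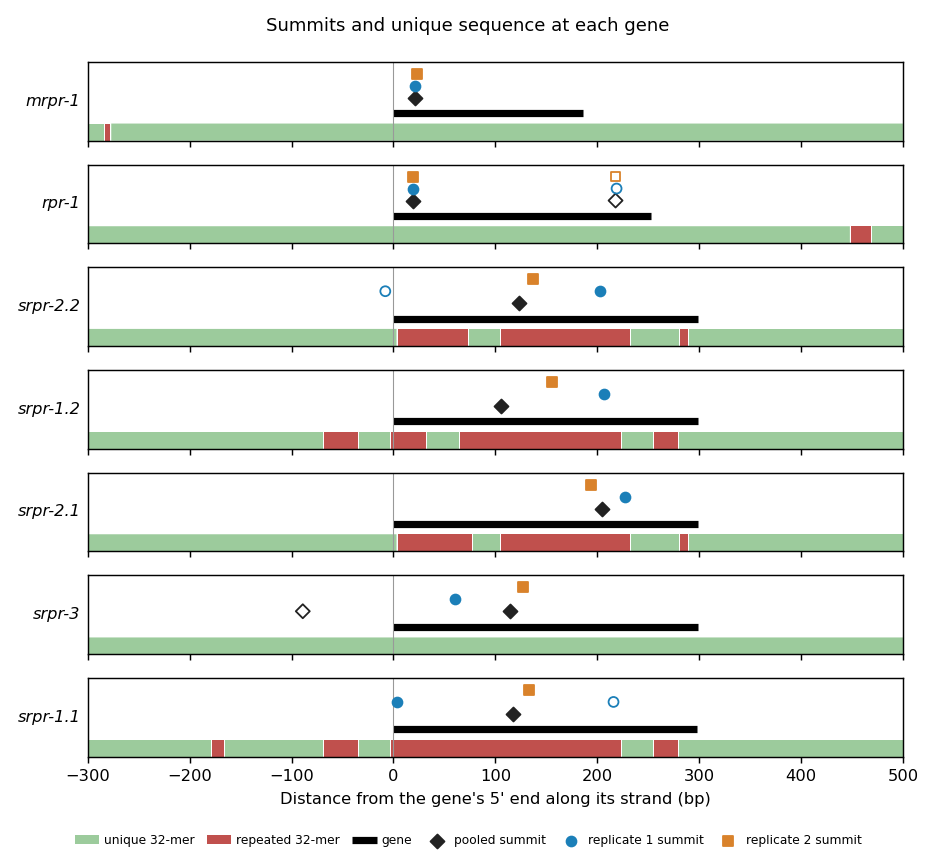
Summits in each list along the 5 genes and the remaining SRP RNA genes, by distance from the gene's 5' end in bp. The black bar is the gene, the band at the bottom of each panel marks 32-letter words that are unique in the genome (green) or repeated (red), filled symbols are the best region of each list and open symbols further regions. The best summits of mrpr-1 and rpr-1 coincide near the 5' end on unique sequence, while those of the SRP RNA members are spread over 33 to 101 bp on mostly repeated sequence. At srpr-3, whose sequence is unique, the best summits are spread over 67 bp.

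A second, weaker region lay in rpr-1. Its summit was 218 bp inside the gene in the pooled list, with a signal of 52.7 at rank 2920, and 219 bp and 218 bp inside in replicate 1 and replicate 2. In replicate 1 this region ranked 11540 with a signal of 21.2, and in replicate 2 it ranked 1953 with 34.2. No further region had its summit within 1500 bp of rpr-1, srpr-1.2, srpr-2.1 or srpr-2.2 in the pooled list, and the nearest to mrpr-1 was 1255 bp upstream at rank 13963. No member had a summit between the edge of the gene and the 100 bp limit in that list.

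For comparison, the 157 nuclear tRNA genes with an optimal region had a median summit 14 bp inside the gene, with quartiles at 12 bp upstream and 44 bp inside. The 50 snoRNA genes with an optimal region had a median position of -44.5 bp, with quartiles at -58.8 and -28.5 bp, a negative position being upstream. The 165 genes of the annotation's class ncRNA with an optimal region, the 5 genes among them, had a median of 73 bp inside and quartiles at 34 and 111 bp. The summits of rpr-1 and mrpr-1 fell within the quartiles of the tRNA genes and nearer to the 5' end than those of the ncRNA class. The summit of srpr-1.2, at 106 bp, fell within the quartiles of the ncRNA class, and those of srpr-2.2 and srpr-2.1, at 123 and 205 bp, lay past them. The genes differ in length, with 253 bp for rpr-1, 186 bp for mrpr-1 and 299 bp for each SRP RNA member.

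**Figure D3:**
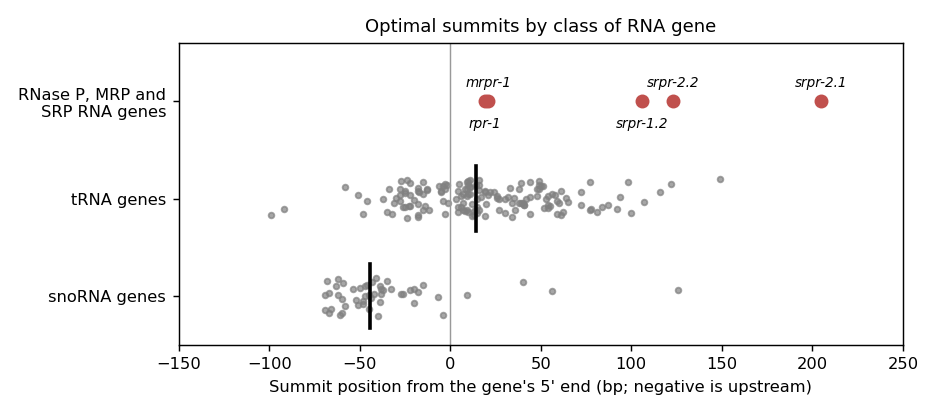
Summit position of optimal regions from the gene's 5' end in bp (negative is upstream), for the 5 genes (red, named), the 157 tRNA genes and the 50 snoRNA genes with an optimal region (grey points, spread vertically at random, with the median as a bar). The points of rpr-1 and mrpr-1 fall beside the tRNA median at 14 bp, and the SRP RNA members lie from 106 to 205 bp.

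Which promoter words lay at the summits was described next. None of the 5 genes held a match to the B box, and no member had an A box and a B box within 100 bp of the pooled summit. Both boxes were present in that window at 32.2% of optimal summits and 1.38% of all pooled summits. An A box was found on the gene's own strand in srpr-2.1 and srpr-2.2 alone among the 5, beginning 222 bp inside the gene. Inside the 612 nuclear tRNA genes 82.4% held a B box and 96.7% an A box, the elements that the polymerase III factor TFIIIC binds.

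With 1 mismatch allowed in each box the picture changed for the SRP RNA genes. All 3 SRP RNA members then had both boxes within 100 bp of the summit, while rpr-1 and mrpr-1 still had none of this pairing. The same loosened search matched 48.9% of optimal summits and 10.5% of pooled ones. The near match to the B box covered bases 185 to 195 of srpr-2.2, srpr-1.2, srpr-2.1 and srpr-1.1, and was missing from srpr-3. On the own strand of these genes, near matches to the A box began at bases 184, 223 and 231. The first overlapped the near match to the B box and the others lay after it, so none lay wholly before it. The stretch from base 171 to base 210 is printed for srpr-2.2 (chrIII:5031499-5031538, minus strand), srpr-1.2 (chrIII:4369638-4369677, plus strand) and srpr-3 (chrV:9293423-9293462, minus strand), with the near match in capitals.
srpr-2.2: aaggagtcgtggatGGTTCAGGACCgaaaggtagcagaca
srpr-1.2: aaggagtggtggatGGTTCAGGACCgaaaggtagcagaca
srpr-3: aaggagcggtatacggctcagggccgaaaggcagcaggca

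The upstream words set rpr-1 and mrpr-1 beside a small group of genes. GTGTCNGCCGC was found on the gene's strand within 120 bp upstream of 13 of the 9426 non-coding genes (0.138%), and in all 13 it began 46 to 61 bp before the gene. These were the RNase genes and 11 others, of which 4 had a pooled region: the snoRNA genes Y67A10A.14 (rank 645), T26A8.6 (rank 2041) and F25H2.15 (rank 7633) and the ncRNA gene K07C10.6 (rank 12603). The other genes with the word were the snoRNA genes F59C6.15, T06D8.11 and Y55F3BR.9, the ncRNA genes CD4.17, lfor-1 and lfor-2 and the miRNA gene cel-mir-8196a. A TATA word between GTGTCNGCCGC and the gene was present at rpr-1 and mrpr-1 and at none of the other 11. An optimal region with its summit within 100 bp was present at rpr-1 and mrpr-1, the genes that defined the word and were chosen for their regions. None of the other 11 had such a summit, but an optimal region at rank 112 overlapped F59C6.15 with its summit 118 bp from the gene. TATAAA or TATATA alone occurred within 100 bp upstream of 804 non-coding genes (8.53%).

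Allowing 1 mismatch in GTGTCNGCCGC, a setting added after the sequences had been seen, gave 61 genes, of which 11 had a TATA word after it. In 9 of these 11 the gap between the words, counted to the first TATA word, was 15 bp. An optimal region lay at 5 of the 11, the RNase genes among them, and at 3 of the 50 genes without the TATA word, where the share over all non-coding genes was 4.08%. Those 3 were the snoRNA gene Y37E3.20 and 2 tRNA genes, classes in which 14.5% and 25.7% of genes had an optimal region. With the TATA word, beside rpr-1 and mrpr-1, the genes were W01D2.7 (ncRNA, II, signal 209, rank 62), W01D2.9 (ncRNA, II, signal 125, rank 177) and F54D8.7 (snRNA, III, signal 112, rank 221). In the ncRNA and snRNA classes 2.125% and 4.65% of genes had an optimal region. Since the RNase genes were chosen for their regions, the count without them is 3 of 9. The other 6 genes were M163.12, M163.13, F42G4.10 and 3 snRNA genes that share the name R07E5.16, of which the copy on chromosome III had a pooled region at rank 1624. These counts do not stand for separate places in the genome or unrelated genes. Besides the genes that share a name, M163.12 and M163.13 lie close together on X. W01D2.7 (14804502 to 14804559) and W01D2.9 (14804795 to 14804876) lie close together on II. The upstream stretches of the 3 genes are printed from 80 bp before the gene to base 30 (W01D2.7 chrII:14804422-14804531, plus strand; W01D2.9 chrII:14804715-14804824, plus strand; F54D8.7 chrIII:5080869-5080978, minus strand), with the loosened word and the TATA words in capitals.
W01D2.7: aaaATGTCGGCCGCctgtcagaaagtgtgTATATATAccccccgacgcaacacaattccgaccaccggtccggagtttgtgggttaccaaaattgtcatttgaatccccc
W01D2.9: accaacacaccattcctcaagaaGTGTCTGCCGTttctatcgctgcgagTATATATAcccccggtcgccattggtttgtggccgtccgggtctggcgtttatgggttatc
F54D8.7: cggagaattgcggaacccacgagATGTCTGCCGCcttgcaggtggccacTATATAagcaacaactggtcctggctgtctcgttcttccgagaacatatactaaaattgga

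Counted to the first TATA word, the gap between the words was 15 bp in each of these 3 genes and in rpr-1. Their summits lay 74 bp from the 5' end of W01D2.7, past its 3' end, and 15 bp and 13 bp upstream of W01D2.9 and F54D8.7, against 19 bp and 21 bp inside rpr-1 and mrpr-1. In replicate 1 and replicate 2 the signals were 98.7 and 107 at W01D2.7, 67.0 and 53.5 at W01D2.9, and 66.0 and 39.4 at F54D8.7. These words are descriptions of the sequence, and which factor binds them was not measured.

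**Figure D4:**
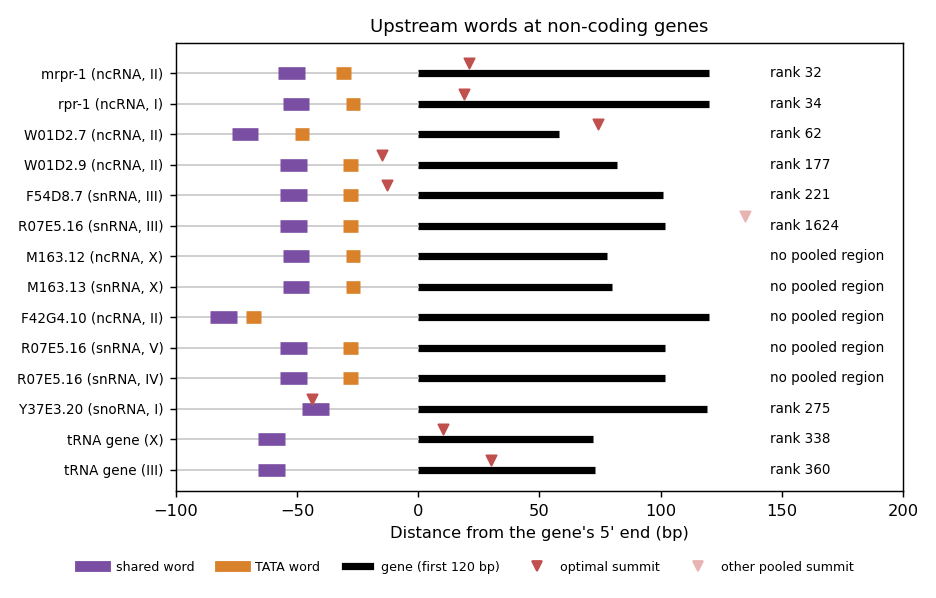
Non-coding genes with GTGTCNGCCGC (purple, up to 1 mismatch) within 120 bp upstream that also had a TATA word after it (orange) or an optimal region, drawn by distance from the gene's 5' end in bp. Black bars are the first 120 bp of each gene, triangles the summit of the best pooled region (dark red where optimal), with its pooled rank at the right. The words sit at almost the same distance before mrpr-1, rpr-1, W01D2.9, F54D8.7 and the R07E5.16 copies, and the RNase genes have the lowest ranks.

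E-boxes (CANNTG), the words that bHLH dimers bind, were absent within 50 bp of the pooled summit at all 5 genes. They were present at 31.7% of optimal summits and 35% of pooled summits. The same search found an E-box at srpr-3. At the 3' end a run of TTTT, the polymerase III stop signal, began within 20 bp after mrpr-1 and each of the 3 SRP RNA members and was not found after rpr-1, srpr-1.1 or srpr-3. It occurred within 20 bp after 28.3% of non-coding genes. The letters ACAGNNA, searched as a form of a conserved box of these RNase RNAs, occurred once in mrpr-1, beginning 136 bp from its first base, and not in rpr-1. The whole mrpr-1 gene (chrII:7200233-7200418, plus strand) is printed with that match in capitals.
mrpr-1: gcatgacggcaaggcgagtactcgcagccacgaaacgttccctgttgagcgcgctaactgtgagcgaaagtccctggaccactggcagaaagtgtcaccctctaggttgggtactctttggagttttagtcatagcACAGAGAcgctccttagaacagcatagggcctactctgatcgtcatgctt

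Protein-coding genes tied to these particles by name were looked at through their promoters. The 14 described here were taken because their RefSeq product names mention the SRP, RNase P or RNase MRP. Not all need encode a part of a particle: Y37F4.4 is named as a docking protein, and mig-2 was listed by name alone. A region was assigned to such a gene where its summit lay at most 1000 bp before or 200 bp after an annotated start. In that window 6 of the 14 had a pooled region, where the share over all 19985 protein-coding genes was 38.3%.

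The best of these regions was at F37F2.2, for the 19 kDa subunit of the SRP, at rank 1881 with a signal of 57.7. The mig-2 gene, at rank 13021, was on the list through its product name, although it is known as a Rac-type GTPase gene. Among the 6 RNase P and MRP protein genes the highest was Y37E11AM.4 at rank 4636, followed by Y62E10A.24 (8042), popl-4 (8561) and popl-1 (27829), and H35B03.2 and popl-5 had none. The summits at Y62E10A.24 and popl-1 also lay in the promoter windows of rla-2 and txdc-9. In the lists of single replicates, Y62E10A.24 and popl-1 had a region in replicate 2 alone, and popl-4 and mig-2 in replicate 1 alone. Of the SRP genes F21D5.7, F25G6.8, F25G6.9, Y37F4.4, ZK512.4 and srpa-72 had no pooled region in the window. None of the 6 summits lay within 100 bp of a non-coding gene other than a piRNA gene.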

How the data were processed

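The authors deposited lists of regions per replicate and for both replicates together, on assembly ce11 per the labels. Per the submitters' file manifests each list came from the alignments of the library or libraries and 1 control library, and the optimal set from the 3 lists. The aligner, the peak caller, their versions, the threshold and the nature of the control are not named in the sources used. The signal is the deposited value of column 7, the authors' enrichment measure, and the −log10 q is deposited in column 9; it is tied at its maximum for 114 pooled regions, so ranks use the signal. Fragments were 200 to 800 bp, per the labels. The lists hold no read counts, so depth is unknown.

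Genes came from Ensembl release 115 and sequence from the RefSeq copy of WBcel235, the same assembly as ce11; all regions lay within its chromosome ends. Genes, lists and motifs were chosen with earlier results of these data known. The genes named are the 5 members, the other SRP RNA genes, their neighbours, the protein genes of the particles, and per member the 3 non-coding genes with the nearest log2 signals in the replicates. The genes with the word shared by rpr-1 and mrpr-1, and hlh-13, were named in addition, after their values were seen. A gene of the protein list is not reported here, nor is the count of optimal regions at that list. No test was made. The A and B boxes, E-boxes, the B box with a mismatch at summits and the uniqueness of sequence were searched on both strands, the other words on the gene's strand. Placing of regions, motif search and uniqueness were checked on simulated data. Alternatives covered distance rules, each replicate alone, a stricter set, other windows and word lengths. Replicates are 2 biological samples of 1 group. Python 3.11.15, numpy 2.4.6, pandas 2.3.3, Biopython 1.88 and matplotlib 3.10.9 were used.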

Additional observations from a re-analysis of the deposited data

How the results depend on the processing

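All 5 members kept an optimal region under each distance rule tried, 4 did in the better 50% of the optimal set, and 4 to 5 had a region among as many best regions of 1 replicate; the gene lost in both cases was srpr-2.1. All 5 members and all 5 SRP RNA genes kept a pooled region under each rule. The median rank of the members was 88, with 80 to 113 from 1 replicate alone and 57.5 when ranked by −log10 q. By −log10 q srpr-1.2 ranked 443 in place of 204, past 423, and srpr-2.1 ranked 116 in place of 313, which reverses their order. The median summit of the members was 106 bp inside the gene, with 137 to 203 bp from 1 replicate alone. By the centre of the pooled region the median was 105 bp. That centre moved rpr-1 from 19 to -4 bp and mrpr-1 from 21 to 66 bp. Their pooled regions were 170 and 96 bp wide, against a list median of 370 bp. In replicate 1 and replicate 2 the centre was at 20 and 22 bp for mrpr-1, and at -6 and 18 bp for rpr-1. The number of members with an A and a B box was 0, also with windows of 50 and 250 bp, and 3 with 1 mismatch allowed. The count of optimal regions at the protein genes and its alternatives are not given. The count of genes with GTGTCNGCCGC and a TATA word was 2, also with 200 bp searched, and 11 with 1 mismatch. The median share of unique words at the summits was 24.3%, and 32.7% with 50-letter words. No paired analysis was possible because the series has 1 group. Depth was unknown, and 2 replicates limit every SD.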

Other observations

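The genes whose log2 signals in the 2 replicates came nearest to those of each member were found among 946 pooled regions at non-coding genes with a region in both replicates. They were C05D2.17, H09I01.4 and F46G11.11 for rpr-1, and C46C2.8, H09I01.4 and B0334.12 for mrpr-1. For srpr-2.2 they were C16B8.8, F28F8.12 and C01C4.5. For srpr-1.2 they were a tRNA gene (WBGene00014325), C30E1.9 and F49D11.13, and for srpr-2.1 Y7A9D.66, a tRNA gene (WBGene00014618) and F54D8.7. The distance was at most 0.14 log2 units, and with 2 replicates many genes can lie that close.

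At hlh-13 itself, whose sequence the transgene carries as well, the pooled region ranked 19688 with a signal of 31.0. In replicate 1 it ranked 9140 with 22.7, and replicate 2 had no region within 100 bp. Of the 423 optimal regions, 3 had GTGTCNGCCGC within 100 bp of the summit on either strand (0.709%, against 0.393% of pooled regions). Beside the regions of rpr-1 and mrpr-1 this was a region 118 bp from the snoRNA gene F59C6.15 (I, summit 10517268, signal 168, rank 112), just outside the 100 bp limit. The genes rpr-1 and mrpr-1 defined the word and were chosen for their regions, so nothing is read from the comparison of these shares.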
